A study of Mus musculus with 80 samples.

Results

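Neurexins, neuroligins, contactin-associated (Cntnap) proteins and Lingo proteins are cell surface molecules that neurons use to join, organise or restrain their contacts. The 9 members described here were Nrxn2, Nrxn3, Nlgn1, Nlgn2, Nlgn3, Cntnap2, Cntnap3, Lingo1 and Lingo2, chosen by name as rows of the deposited expression table, and all 9 were among its 25160 listed genes. Single neurons came from the dorsomedial striatum of adult mice heterozygous for both Drd1a-TdTomato and Drd2-EGFP, BAC transgenes in which regulatory DNA of the D1 or the D2 dopamine receptor gene drives a fluorescent protein. Cells were sorted 1 per well by their fluorescence, 40 as Drd1 (TdTomato) and 40 as Drd2 (EGFP), and sequenced with the SMARTer v3 kit. All cells therefore carried both reporters and differed in which one was bright, and no other genotype or treatment was compared. The labels do not tie cells to animals, so each group counted as 1 sample, no test was run between the groups, and ranges over cells describe these cells only.

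Neurexins sit mainly on the presynaptic side, where they bind a wide set of postsynaptic ligands, and each neurexin gene has more than 1 promoter and is spliced into many forms. Neuroligins are their classical postsynaptic ligands, with Nlgn1 found mainly at excitatory contacts, Nlgn2 at inhibitory contacts and Nlgn3 at both kinds. Cntnap proteins share the extracellular layout of neurexins, and Cntnap2 gathers potassium channels along the axon together with contactins, while Lingo proteins carry leucine-rich repeats and an immunoglobulin domain and Lingo1 takes part in the Nogo receptor complex, which restrains axon growth. Medium spiny neurons (MSN), the projection neurons of the striatum, release GABA and receive glutamatergic input from cortex and thalamus, so they hold both sides of such contacts.

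The cells labelled Drd1 are all called D1 MSN here, by their label alone, also where their own markers were low. The paper reports usable data from fewer cells than were sequenced. The labels do not mark which, so no cell was left out for its quality. Among the Drd2 cells, 2 held more than 100 TPM (a transcript abundance scaled by gene length and library size) of Chat, the enzyme that makes acetylcholine, and were set apart as cholinergic interneurons, which left 38 D2 MSN and 78 MSN in all. The TPM table gives no read counts, so depth per cell is unknown and the number of genes above 1 TPM stood in for it: 648 to 8657 genes with a median of 5722 for the D1 cells, and 1215 to 7942 with a median of 4927.5 for the D2 cells. The D1 markers Drd1, Pdyn and Tac1 summed to medians of 1174 TPM (D1) and 1.65 TPM (D2), and the D2 markers Drd2, Adora2a, Penk and Gpr6 to medians of 11.6 and 10848 TPM, although single cells of each group reached 3682 TPM for the D2 list and 1218 TPM for the D1 list. Astrocyte markers reached 2654 TPM in a D1 MSN and at most 45.5 TPM in D2 MSN. Oligodendrocyte markers had medians of 2.86 and 2.96 TPM but reached 259.97 and 84.8 TPM in single cells. Sst and Pvalb summed to at most 2.51 TPM in D1 MSN and were listed at 0 in all D2 MSN. Microglial markers reached 10.8 and 20.8 TPM. Endothelial markers summed to 10.8 to 152 TPM in D1 MSN and 13.8 to 277 TPM in D2 MSN. General MSN markers summed to at least 311 TPM in D2 MSN, but to only 2.13 TPM in the lowest D1 MSN. A Drd1 cell in well D04 of plate FACS051_5 stood apart, with Drd1 at 2.03 TPM and Aldoc, an astrocyte-enriched enzyme, at 10427 TPM. Another Drd1 cell (FACS086_4, well B02) had only 648 genes above 1 TPM and Drd1 at 0, and a Drd2 cell (FACS086_9, well A12) had 1215 genes. Cell titles named 3 plates: FACS051_5 held 18 D1 and 16 D2 MSN, FACS086_4 held 21 and 19, and FACS086_9 held 1 and 3. Median genes per cell were lower in D1 than in D2 MSN on FACS051_5 (5109 and 5923) and higher on FACS086_4 (5730 and 4617), so values within these 2 large plates stand beside the pooled ones.

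Across the 9 members, Cntnap3 and Lingo2 were found almost only in D1 MSN, Nrxn2 had a higher mean in D2 MSN, and the mean levels of Nrxn3, Nlgn2, Nlgn3 and Lingo1 were nearly the same in both groups (log2 folds between -0.12 and 0.17). The log2 fold used throughout is that of the group means, log2((mean TPM in D1 MSN + 1)/(mean TPM in D2 MSN + 1)). Of the 9 members, 2 had a log2 fold above 1 (22.2%), where 21.1% of the 15671 genes averaging at least 1 TPM did, and 1 had a log2 fold below -1 (11.1%), where 14.8% did, so the number of members past either limit was near that of all genes. The median fold of the members was -0.03 and that of all genes 0.09. The same 3 members also passed the limits within both large plates, as 5.84% of all genes did upwards and 4.3% downwards, although on FACS051_5 Cntnap3 passed against D2 MSN that were all listed at 0 and 1 cell gave 86.9% of its D1 sum, and Nrxn2 passed there only through 1 D2 cell. By the share of cells above 1 TPM, 2 of 9 members were at least 25 percentage points higher in D1 MSN, against 1.65% of all genes, and 0 of 9 were as much higher in D2 MSN, against 0.281%. The members were picked with earlier results of these data known, so these shares are descriptions.

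**Figure D1:**
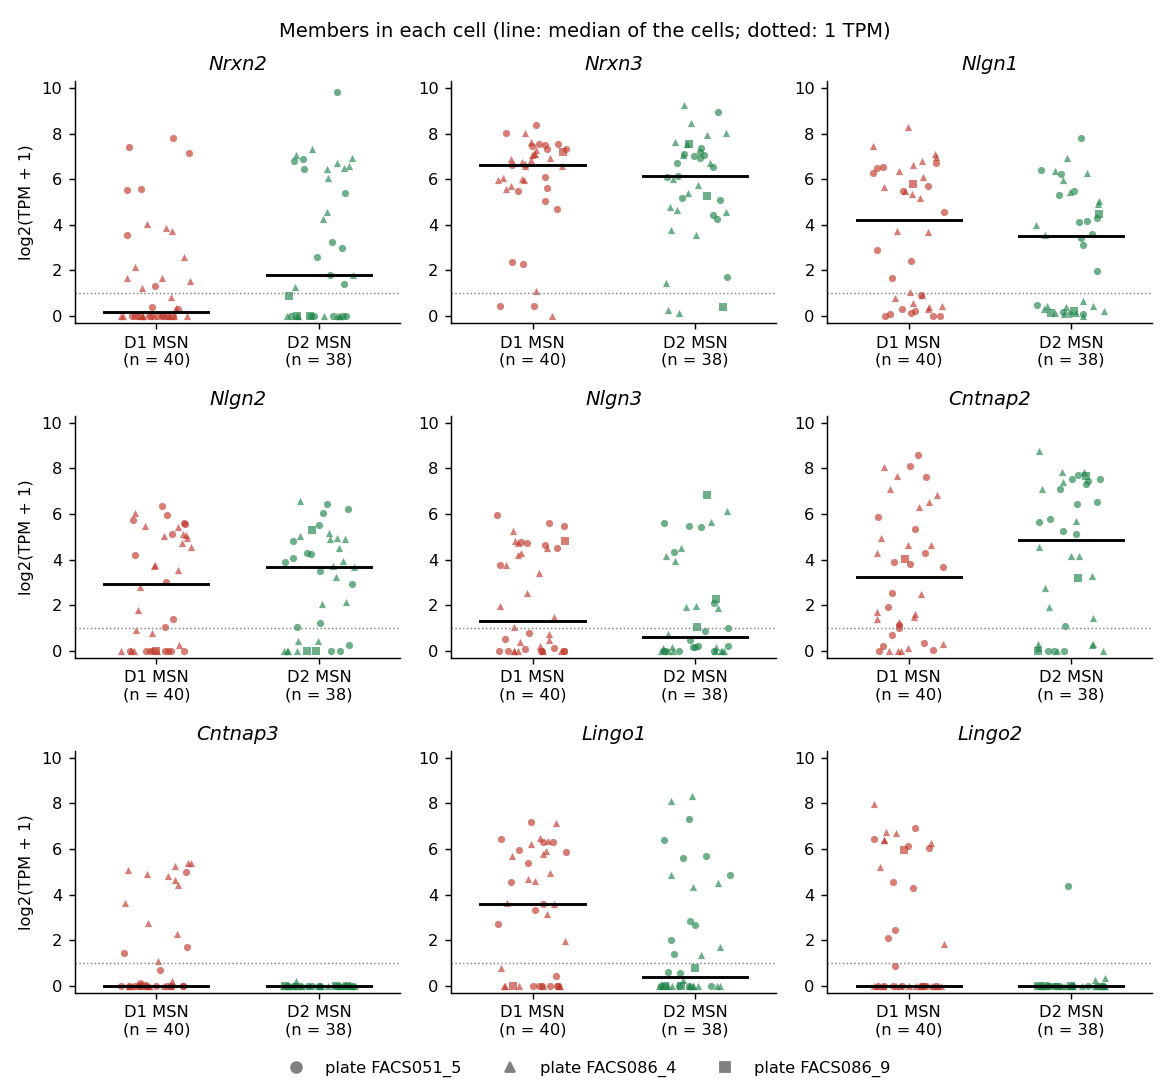
Each point is 1 MSN, on the y axis as log2(TPM + 1), for the 9 members in 40 D1 MSN (red) and 38 D2 MSN (green), with symbols for the 3 plates, a line at the median of the cells and a dotted line at 1 TPM. Nrxn3 lies high in nearly every cell of both groups, most other members split into cells with and without the gene, and for Cntnap3 the 15 cells above 1 TPM are all D1 MSN.

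Nrxn3 was the most abundant member in both groups, and its level was much alike in them. The gene spans 1612 kb (chr12:88722876-90334935, plus strand, GRCm38, GENCODE M21 annotation). It ranged from 0 to 334 TPM among the D1 cells, with a median of 98.0, and for D2 cells from 0.0887 to 613 TPM with a median of 68.5. The ranges overlapped almost completely. The means were 105.3 ± 78.8 TPM (SD over 40 cells) and 113 ± 134 TPM (SD over 38 cells), a log2 fold of -0.10, with -0.01 within FACS051_5 and -0.28 within FACS086_4. Above 1 TPM were 37 of 40 D1 MSN, or 92.5% (exact Clopper-Pearson 95% interval 79.6 to 98.4%), and 35 of 38 D2 MSN, or 92.1% (78.6 to 98.3%). All such intervals cover counting error of cells only. Of the 6 MSN without it, 5 had 648 to 3825 genes above 1 TPM, and the other was the D1 cell in well D04 named above, with 4838 genes. Its exons overlap those of Gm37980 on the opposite strand, which averaged 4.28 and 2.28 TPM, and since the kit does not mark strand their reads cannot be told apart there.

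Nrxn2 (chr19:6418731-6544169, plus strand, 125 kb) was found in fewer cells and had a lower mean in D1 MSN. Its values ran from 0 to 222 TPM with a median of 0.125 in D1 MSN, and from 0 to 895 TPM with a median of 2.47 in D2 MSN. Both groups held many cells at 0 and the ranges overlapped, but 15 D2 MSN and 9 D1 MSN exceeded 10 TPM. Mean levels of 17.3 ± 48.1 TPM (D1) and 57.1 ± 148 TPM (D2) gave a log2 fold of -1.66. A single D2 cell gave 41.3% of the D2 sum, and without that cell alone the fold was -0.95, short of the limit of -1, whereas without the highest cell of each group it was -1.44. Above 1 TPM were 16 of 40 D1 cells (40%, 24.9 to 56.7%) and 22 of 38 D2 cells (57.9%, 40.8 to 73.7%). That difference (D1 minus D2) was -17.9 percentage points, short of the limit of 25.

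The Nrxn2 difference depended on the plate. On FACS051_5 the means were 35.3 TPM in D1 and 79.6 TPM in D2 MSN (log2 fold -1.15), but 1 D2 cell at 895 TPM (well B05) gave 70.3% of that D2 sum. Without it the other 15 D2 MSN averaged 25.2 TPM, below the D1 mean, and the fold was 0.47, so the direction on this plate rested on that cell. On FACS086_4 the means were 2.78 and 47.2 TPM (-3.67), and the fold was -3.47 without the highest cell. In the latter plate the highest D1 value was 15.6 TPM and 10 of 19 D2 MSN lay above 10 TPM. Without FACS086_4 the fold was -0.98, and among the 30 D1 and 26 D2 MSN with 4000 to 8000 genes above 1 TPM it was -0.81, so it passed the limit of -1 under neither setting. The exons of Nrxn2 overlap those of 2 genes on the opposite strand, Gm14964 and Slc22a12, but Slc22a12 reached 0.225 TPM at most and Gm14964 13.2 TPM.

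Nlgn1, the neuroligin of excitatory contacts, had the highest mean of the 3 neuroligin genes in both groups (chr3:25426215-26332460, minus strand, 906 kb). It ranged from 0 to 306 TPM with a median of 17.4 in D1 MSN and from 0 to 221 TPM with a median of 10.4 in D2 MSN. The groups overlapped over nearly the whole range. Means of 46.0 ± 63.1 and 27.3 ± 44.3 TPM gave a log2 fold of 0.73, but its sign differed between plates, at -0.30 on FACS051_5 and 1.28 on FACS086_4. The share of cells above 1 TPM followed the same split, at 10 of 18 D1 against 12 of 16 D2 MSN on the first plate and 15 of 21 against 9 of 19 on the second. On each plate the group with the higher share was also the one with more genes per cell. Among the cells with 4000 to 8000 genes the fold was 0.14, and the difference in the share of cells (D1 minus D2) was -9.74 percentage points, against 7.11 points over all cells. Without the highest cell, a D2 cell, the fold on FACS051_5 was 0.33, so its sign there rested on that cell.

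Nlgn2, the neuroligin of inhibitory contacts, was nearly level between the groups (chr11:69823122-69837784, minus strand, 15 kb). D1 MSN ranged from 0 to 79.7 TPM with a median of 6.58, and D2 MSN from 0 to 93.3 TPM with a median of 11.97. With means of 17.96 ± 22.2 and 19.6 ± 24.6 TPM the log2 fold was -0.12, and it was -0.30 and 0.05 within the large plates. Above 1 TPM were 24 of 40 D1 cells (60%, 43.3 to 75.1%) and 27 of 38 D2 cells (71.1%, 54.1 to 84.6%).

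Nlgn3, which is X-linked and found at both kinds of contact, was the scarcest neuroligin (chrX:101299168-101325963, plus strand, 27 kb). It ranged from 0 to 61.6 TPM with a median of 1.46 in D1 MSN and from 0 to 114 TPM with a median of 0.522 in D2 MSN. The means, 11.8 ± 15.9 and 12.1 ± 24.4 TPM, differed by a log2 fold of -0.03, with 0.52 on FACS051_5 and -0.13 on FACS086_4. A share of 21 of 40 D1 cells (52.5%, 36.1 to 68.5%) and 17 of 38 D2 cells (44.7%, 28.6 to 61.7%) held it above 1 TPM. Its exons share 1930 bases with Gm21986 on the same strand, which averaged 1.73 and 0.441 TPM and whose reads could not be told apart there. Nlgn1 likewise overlaps the antisense gene A830092H15Rik, at means of 16.6 and 8.83 TPM, and 6 of the 8 MSN with that gene above 1 TPM also held Nlgn1.

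At least 1 neuroligin was above 1 TPM in 37 of 40 D1 MSN and 34 of 38 D2 MSN. All 3 were found together in 8 D1 and 9 D2 MSN, and 2 of the 3 in 18 and 14. The 7 MSN without any neuroligin had a median of 3259 genes and the 17 with all 3 a median of 6191. A neuroligin together with Nrxn2 or Nrxn3 occurred in 35 of 40 D1 cells (87.5%, 73.2 to 95.8%) and in 33 of 38 D2 cells (86.8%, 71.9 to 95.6%). Most MSN of both groups thus held transcripts for both sides of a neurexin and neuroligin contact.

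**Figure D2:**
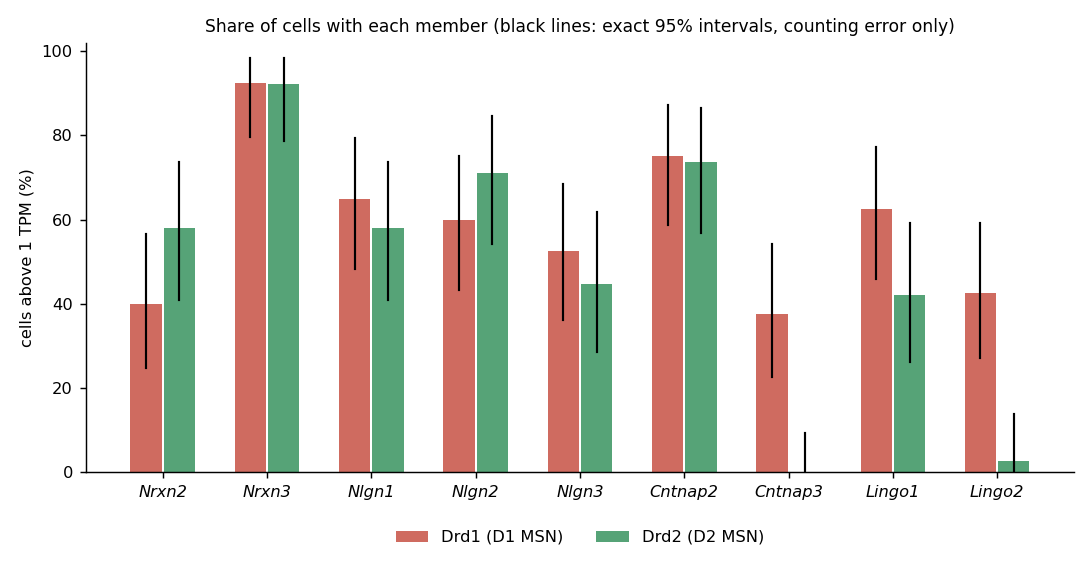
Bars give the share of cells above 1 TPM (y axis, percent) for each member in 40 D1 MSN (red) and 38 D2 MSN (green), and black lines the exact 95% intervals, which cover counting error only. Cntnap3 (37.5% against 0%) and Lingo2 (42.5% against 2.63%) lie at least 25 percentage points higher in D1 MSN. Of all genes averaging at least 1 TPM, 1.65% did so.

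Cntnap2, the contactin-associated protein that gathers potassium channels on the axon, ranked second in both groups (chr6:45059357-47304213, plus strand, 2245 kb). D1 MSN ran from 0 to 387 TPM with a median of 8.36, and D2 MSN from 0 to 432 TPM with a median of 28.2. The values overlapped throughout. D1 cells averaged 50.8 ± 91.3 TPM and D2 cells 77.2 ± 99.6 TPM, a log2 fold of -0.59 with -0.62 and -0.54 on the plates, but with -1.21 and -0.06 once the highest cell of each plate was left out. The shares above 1 TPM were close, at 30 of 40 (75%, 58.8 to 87.3%) and 28 of 38 (73.7%, 56.9 to 86.6%), so the groups differed more in the level among cells with the gene (medians of 18.5 and 70.5 TPM) than in the number of such cells. On FACS051_5 those medians were 13.96 and 92.3 TPM, while on FACS086_4 they were 24.0 and 22.6 TPM.

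Cntnap3, a neurexin-like membrane protein of the same family, was above 1 TPM in D1 MSN and in no D2 MSN (chr13:64736182-64903955, minus strand, 168 kb). In D1 MSN it ranged from 0 to 40.5 TPM with a median of 0, since 15 of 40 cells held it (37.5%, 22.7 to 54.2%). In D2 MSN 1 cell stood at 0.145 TPM and 37 were listed at 0, giving 0 of 38 cells above 1 TPM, which allows a share of up to 7.89% by the limit of 3 cells (the 2-sided exact interval drawn with the shares ends at 9.25%). The other 25 D1 MSN lay at or below 1 TPM, as all D2 MSN did. Among the 15 D1 cells with Cntnap3 the median was 24.0 TPM and 10 exceeded 10 TPM. The group means of 7.73 ± 13.4 and 0.00381 ± 0.0235 TPM gave a log2 fold of 3.12, a size that rests on the added 1 TPM: it was 6.24 with 0.1 TPM and 0.83 with 10 TPM.

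The D1 cells with Cntnap3 were spread unevenly over the plates. FACS051_5 had 3 of 18 D1 MSN with more than 1 TPM (16.7%, 3.58 to 41.4%), with a mean of 1.98 TPM to which 1 cell gave 86.9%, and all 16 D2 MSN there were listed at 0. FACS086_4 had 12 of 21 such D1 cells (57.1%, 34.02 to 78.2%), with a mean of 13.0 TPM, and 0 of 19 such D2 cells. Without FACS086_4 the share of cells was 15.8 percentage points higher in D1 MSN, and without FACS051_5 it was 54.5 points higher. The direction was the same on both plates, and the level rested mainly on FACS086_4. Leaving out well D04, or the cells with under 2000 genes, left the difference at 38.5 points each, and it was 40 points among the cells with 4000 to 8000 genes.

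Lingo1, the Nogo receptor partner, had nearly equal means but was found in more D1 cells (chr9:56618475-56796468, minus strand, 178 kb). It ranged from 0 to 143 TPM with a median of 11.04 in D1 MSN and from 0 to 315 TPM with a median of 0.321 in D2 MSN. The highest values belonged to D2 cells, and 1 of them gave 30.1% of the D2 sum. The means of 31.2 ± 39.6 and 27.6 ± 70.8 TPM gave a log2 fold of 0.17 (0.43 and -0.15 within the plates), whereas the difference of mean log2(TPM + 1), which weighs single high cells less, was 1.27. Without the highest cell, a D2 cell on each plate, the folds were 1.08 on FACS051_5 and 0.67 on FACS086_4, and 0.63 when pooled. The sign on FACS086_4 thus rested on that cell. Above 1 TPM were 25 of 40 D1 cells (62.5%, 45.8 to 77.3%) and 16 of 38 D2 cells (42.1%, 26.3 to 59.2%). That difference of 20.4 percentage points was 4.86 points on FACS051_5 and 29.8 points on FACS086_4, the plate where D1 MSN had more genes per cell.

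Lingo2, a paralog of Lingo1, showed the largest fold of the 9 members (chr4:35706647-36951747, minus strand, 1245 kb). In D1 MSN it ranged from 0 to 251 TPM with a median of 0, and in D2 MSN 1 cell stood at 19.5 TPM while the next reached 0.265 TPM. Of the 40 D1 MSN 17 held it above 1 TPM (42.5%, 27.04 to 59.1%), with a median of 69.9 TPM among them, and of the 38 D2 MSN only that 1 did (2.63%, 0.0666 to 13.8%). The groups thus differed in the number of cells in which Lingo2 was found. The means were 29.8 ± 52.1 and 0.525 ± 3.16 TPM, a log2 fold of 4.34, with 3.35 on FACS051_5 and 5.15 on FACS086_4. The shares differed by 38.2 points on FACS051_5 (8 of 18 against 1 of 16) and 38.1 points on FACS086_4 (8 of 21 against 0 of 19, which allows up to 15.8%). Over all alternatives run the fold lay between 1.92 and 5.58 and the share difference between 32.4 and 50 points.

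**Figure D3:**
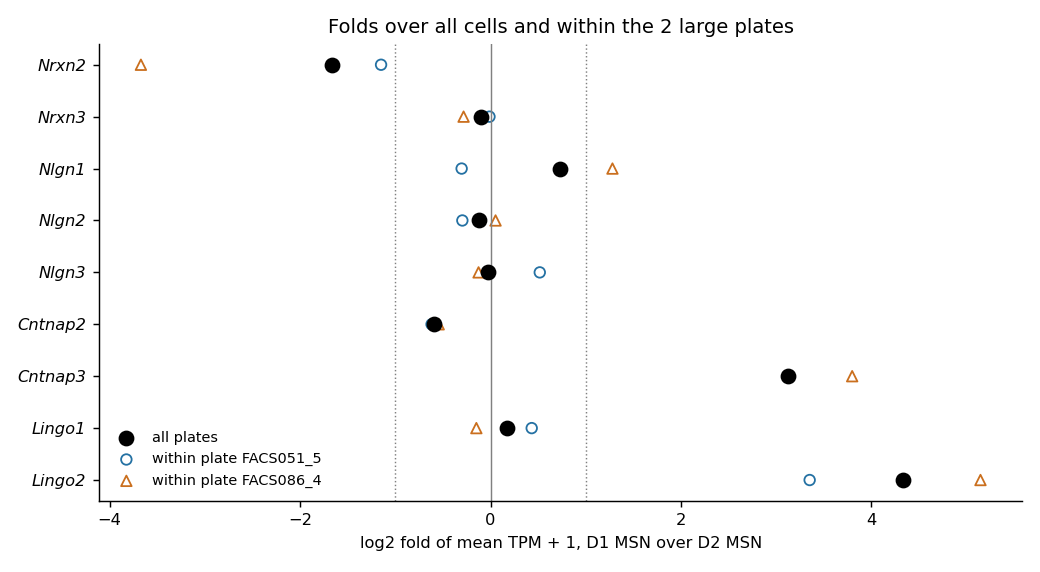
The x axis gives the log2 fold of mean TPM + 1, D1 over D2 MSN, for the 9 members, over all cells (black) and within FACS051_5 (blue circles) and FACS086_4 (orange triangles), with dotted lines at -1 and 1. Cntnap3 and Lingo2 lie right of 1 and Nrxn2 left of -1 at every point drawn, although the Nrxn2 point of FACS051_5 would lie at 0.47 without 1 D2 cell. Nlgn1 changes side between plates, and Cntnap3 has no point for FACS051_5 because its D2 MSN were all listed at 0.

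Because Cntnap3 and Lingo2 were the members found almost only in D1 MSN, the bases before their RefSeq start sites are shown (GRCm38.p6, minus strand, 5′ to 3′ along the gene, with a CAGCTG in capitals where there is one). For Cntnap3 they are the 183 bases of the 250-base window that lie outside the first GENCODE exon, and for Lingo2 the whole window.
Cntnap3, chr13:64903956-64904138: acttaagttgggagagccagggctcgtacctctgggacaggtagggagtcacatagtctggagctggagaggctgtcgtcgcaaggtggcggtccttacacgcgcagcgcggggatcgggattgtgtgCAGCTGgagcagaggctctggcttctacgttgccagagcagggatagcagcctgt
Lingo2, chr4:35845205-35845454: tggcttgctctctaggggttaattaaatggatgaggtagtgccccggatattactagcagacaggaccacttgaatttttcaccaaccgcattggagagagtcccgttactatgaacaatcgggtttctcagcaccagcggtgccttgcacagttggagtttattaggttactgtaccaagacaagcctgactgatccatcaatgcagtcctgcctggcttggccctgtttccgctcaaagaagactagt

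The promoter windows of Cntnap3 and Lingo2 are described by GC content and 4 short motifs, too few measures to say whether they are alike. GC content over 250 bases was 60.4% for Cntnap3 and 48.4% for Lingo2, where the median of 32851 mouse promoter windows of that length was 52.4% and the 5th and 95th percentiles were 34.8 and 73.6%. On either strand, CAGCTG (an E-box, whose reverse complement is itself) occurred in 13.0% of all windows, TATAAA in 12.4%, GGGCGG in 32.7% and TGACGTCA in 1.55%. Cntnap3 held 1 CAGCTG and none of the other 3 motifs, and Lingo2 held none of the 4. A match, or none, is only a statement on these letters in this window. RefSeq windows matched 7 of the 9 members. The Lingo2 window shown lies inside the annotated gene, whose 5′ end is at chr4:36951747, and which start these cells used was not tested. A second RefSeq start of Lingo2 meets the edge of an internal exon in GENCODE and is not shown.

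Lingo2 and Cntnap3 overlapped in D1 MSN about as often as the product of their shares gives. Both were above 1 TPM in 6 of 40 D1 MSN, where that product is 6.375 cells, Lingo2 alone in 11, Cntnap3 alone in 9 and neither in 14. The medians of genes per cell were 6804 in the cells with both and 4762.5 in those with neither, so the cells without either gene were also those with fewer genes found. Lingo2 was found beside Lingo1 in 13 of its 17 D1 cells, and Lingo1 was above 1 TPM in 25 of all 40. Cntnap3 lay beside Cntnap2 in 13 of its 15 cells, and Cntnap2 was above 1 TPM in 30 of all 40. The D1 cells with these pairs had medians of 6588 and 6545 genes, above the D1 median of 5722. Pdyn, the dynorphin precursor that marks many D1 MSN, was above 1 TPM in 12 of 17 D1 MSN with Lingo2 and 10 of 23 without, and in 8 of 15 with Cntnap3 and 14 of 25 without.

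The number of members found in a cell followed the number of genes found. D1 MSN held 1 to 9 members above 1 TPM and D2 MSN 1 to 7, with a median of 5 in both groups. Because Cntnap3 was above 1 TPM in 0 and Lingo2 in 1 of 38 D2 MSN, higher counts were nearly out of reach there. Spearman's rho between members and genes per cell was 0.82 over 40 D1 MSN and 0.71 over 38 D2 MSN, given as a description, since both counts come from the same library. The 19 MSN with 3 or fewer members had a median of 3259 genes and the 16 with 7 or more a median of 6842. A cell without a member is therefore not shown to lack it.

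**Figure D4:**
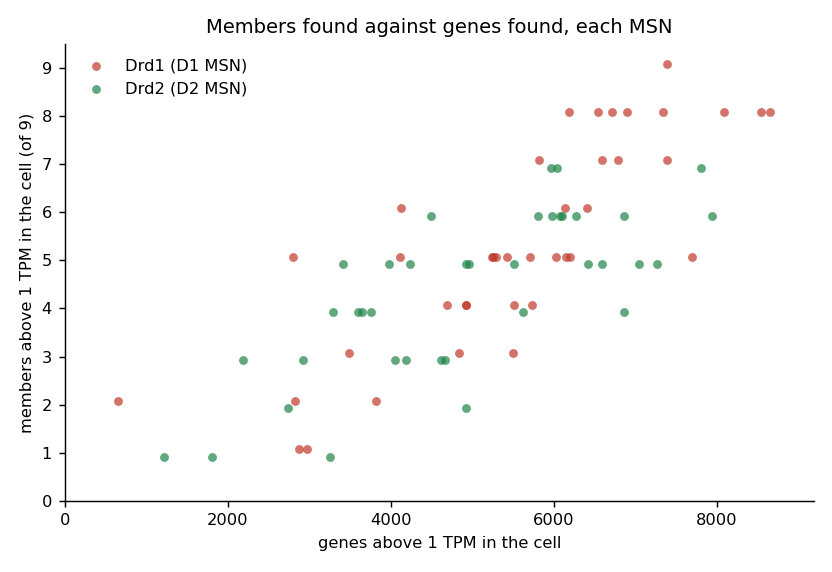
Each point is 1 MSN, with the number of genes above 1 TPM on the x axis and the number of the 9 members above 1 TPM on the y axis, D1 MSN in red and D2 MSN in green, set slightly apart in height so that both can be seen. Members per cell climb with genes per cell in both groups. The cells with 8 or 9 members are all D1 MSN, which restates that Cntnap3 and Lingo2 were above 1 TPM in 0 and 1 of 38 D2 MSN.

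How the TPM were computed is not given, and the paper describes read signal biased toward the downstream end of transcripts. Ranks and family shares compare different genes and are therefore rough. By mean TPM, the order in D1 MSN was Nrxn3, Cntnap2, Nlgn1, Lingo1, Lingo2, Nlgn2, Nrxn2, Nlgn3 and Cntnap3. In D2 MSN it was Nrxn3, Cntnap2, Nrxn2, Lingo1, Nlgn1, Nlgn2, Nlgn3, Lingo2 and Cntnap3. Among neighbours in the D1 order, only Nrxn3 above Cntnap2 and Lingo2 above Nlgn2 kept their places on both large plates, and in the D2 order all did except Lingo1 and Nlgn1. Within the Lingo family, Lingo1, Lingo2 and Lingo3 each gave 32.1 to 33.9% of the summed mean in D1 MSN, whereas in D2 MSN Lingo1 gave 73.3%, Lingo3 24.9% and Lingo2 1.39%. The even split in D1 MSN was that of the pooled cells, since Lingo2 gave 21.4% on FACS051_5 and 41.03% on FACS086_4, and Lingo3 45.9% and 22.2%. Cntnap2 gave 64.7% of the Cntnap family sum in D1 and 87.6% in D2 MSN.

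Partners of the members were drawn from lists of family relatives, extracellular ligands, scaffolds and other synaptic organisers, 73 genes besides the members, of which 68 were listed and 55 averaged at least 1 TPM. Of these 55, 9 had a log2 fold above 1 (16.4%) and 5 below -1 (9.09%), shares below those of all genes (21.1% and 14.8%), with a median fold of 0.18. Counting members too, 2 of 5 Cntnap genes and 2 of 3 Lingo genes at that level had a fold above 1, and 1 Cntnap gene had a fold below -1. That last gene was above 1 TPM in only 3 D1 and 6 D2 MSN. A relative, Cntnap5a, passed the limit on shares, with 21 of 40 D1 and 9 of 38 D2 MSN above 1 TPM and means of 10.9 and 3.04 TPM.

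Among the relatives, Lingo3 had a mean of 31.4 TPM in D1 and 9.39 TPM in D2 MSN (log2 fold 1.64, with 2.21 and 0.74 on the large plates), and 1 cell gave 47.9% of its D2 sum. Of the extracellular neurexin ligands, 12 averaged at least 1 TPM and 0 had a fold above 1, where 21.1% of all genes did. The 1 ligand with a fold below -1 drew its whole D2 sum from 1 cell. The most abundant ligands were the latrophilin Adgrl3 (70.9 and 79.0 TPM, fold -0.15) and the leucine-rich repeat protein Lrrtm3 (69.4 and 56.9 TPM, fold 0.28). Cbln2 and Nxph1 were listed at 0 in all MSN. Of the MDGA proteins, which bind neuroligins and block neurexins from them, Mdga2 had means of 31.7 and 48.0 TPM (fold -0.58), and Mdga1 was above 1 TPM in 3 of 78 MSN.

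On the presynaptic side, 1 of 6 scaffolds had a fold above 1 (16.7%, where 21.1% of all genes did). That was Apba2, an adaptor that binds the tails of neurexins, at 41.0 and 16.1 TPM (log2 fold 1.29, with 1.68 and 0.89 within plates, and 0.69 in the cells with 4000 to 8000 genes). Lin7b, with means of 212 and 196 TPM, and Lin7c, with 34.1 and 31.03 TPM, differed by folds of 0.11 and 0.13. Of 5 postsynaptic scaffolds, Shank3, a scaffold of excitatory synapses, had a fold of -1.69 (5.70 and 20.6 TPM, with -1.71 and -1.80 within plates) although 15 cells of each group held it, and 1 cell gave 30.4% of its D2 sum. The inhibitory scaffold gephyrin, Gphn, averaged 39.4 and 34.4 TPM.

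Among 9 partners of Cntnap proteins, 2 had folds above 1 and 2 below -1 (22.2% each, where 21.1% and 14.8% of all genes did). Of the 2 above 1, 1 was found in only 3 D1 and 4 D2 MSN, with 60.6% of its D1 sum from 1 cell. The contactin Cntn4 was lower in D1 MSN, at 21.3 and 92.9 TPM (log2 fold -2.07, with -3.93 and -1.69 within plates) and 16 of 40 against 24 of 38 cells, and the potassium channel Kcna2 averaged 7.22 and 15.97 TPM (-1.05, and -0.92 in the cells with 4000 to 8000 genes). The most abundant partner, Cntn5, averaged 79.1 and 52.1 TPM (fold 0.59). Of the Nogo pathway genes listed as partners of Lingo1, 5 averaged at least 1 TPM. Of these 0 passed either limit, where 21.1% of all genes lay above 1 and 14.8% below -1. Rtn4r, the gene of the Nogo receptor, was listed at 0 in all MSN, and Ngfr averaged 0.330 and 0.141 TPM. Rtn4rl1, a relative of Rtn4r, averaged 17.7 and 13.1 TPM. Rtn4, which encodes Nogo, averaged 212 and 295 TPM (fold -0.48), and Omg, a myelin ligand of the Nogo receptor, 49.3 and 77.9 TPM (-0.65). Of 12 other synaptic organisers, 3 had folds above 1 (25%, near the 21.1% of all genes). Among these, Slitrk3 averaged 16.02 and 5.01 TPM (fold 1.501, with 2.71 and 0.64 within plates), and 1 cell gave 31.1% of its D1 sum. Slitrk5 averaged 16.9 and 6.70 TPM (fold 1.21, and 0.95 in the cells with 4000 to 8000 genes). The receptor phosphatase Ptprd averaged 84.8 and 63.5 TPM (fold 0.41) and Flrt3 57.4 and 78.1 TPM (-0.44).

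**Figure D5:**
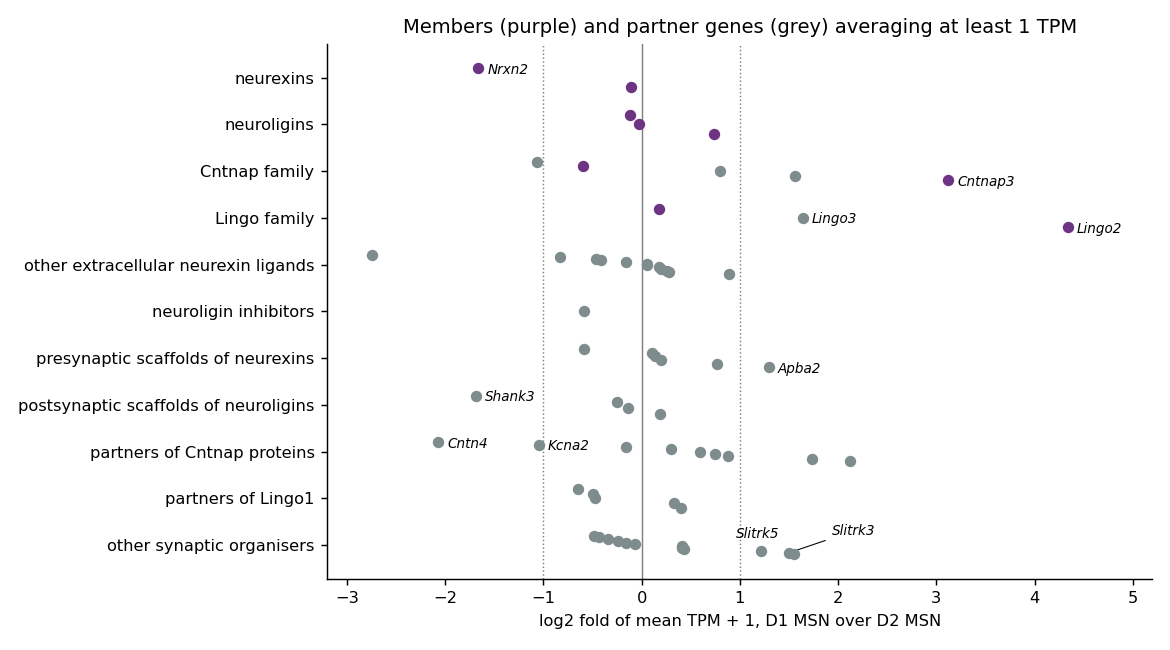
Points are genes of the lists averaging at least 1 TPM over the 78 MSN, with its list on the y axis and the log2 fold of mean TPM + 1, D1 over D2 MSN, on the x axis. Members are purple, partner genes are grey, dotted lines stand at -1 and 1, and most partner genes lie between them while Lingo2 and Cntnap3 lie farthest to the right.

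For the 7 members above 1 TPM in at least 20 MSN, the genes most like them by Spearman's rho of TPM over the 78 MSN, among 7768 genes compared, had rho between 0.42 and 0.57, so no gene followed a member closely. Etnk1, Actr2 and Chn1 were closest to Nrxn3 (0.55, 0.50 and 0.50), Gimap8, Vdac3 and Atp11a to Nrxn2 (0.46, 0.42 and 0.42), and Gm43887 and Prosc to Nlgn1 (0.52 and 0.47). Grik5, Robo1 and Rem2 were closest to Nlgn2 (0.51, 0.48 and 0.48), and Irs2, Clstn1 and Zc3hc1 to Nlgn3 (0.52, 0.51 and 0.49). For Cntnap2 they were Atp1b1, Mzt1 and Grm5 (0.57, 0.54 and 0.54), and for Lingo1 Smarcad1, Srpk1 and Oscp1 (0.56, 0.53 and 0.52). Each of these is the top of a long ranking, and the members' own rho with genes per cell was 0.20 for Nrxn2 and up to 0.56 for Lingo1. Between members, the largest rho was 0.40, for Nrxn3 and Lingo1, and that of Nrxn2 and Nrxn3 was -0.00057.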

How the data were processed

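Single cells were sorted into plates and their cDNA was made with the SMARTer Ultra Low Input v3 kit, which does not mark strand. The submitters' processing notes name bcl2fastq 2.18, FastQC 0.11.5, STAR 2.5.0, featureCounts 1.5.1 and DESeq2 1.14.1 with the builds mm10 and GRCm38. The deposited values are TPM per gene and cell, made by the authors, and how TPM were computed from counts is not given in the sources used here. Listed TPM summed to 506588 to 958040 per cell. Read depth is unknown, so no count test was run and a 0 may be a gene that was missed.

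Groups came from the marker gene in the labels, and plates and wells from the cell titles. With 1 sample a group no p-value was computed. Folds were log2 of the ratio of mean TPM + 1, and shares counted cells above 1 TPM with exact Clopper-Pearson 95% intervals. Where 0 cells passed, the limit is that of 3 cells. Calls were a fold above 1 or below -1 or a share difference of at least 25 points, over the 15671 genes averaging at least 1 TPM, and all 9 members passed that filter. Scripts ran in Python 3.11.15 with pandas 2.3.3 and scipy 1.17.1. Only the fold and share steps were tested, on these MSN split at random with some genes raised by a known factor. No pair among the 80 columns was identical.

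The members, the lists and the Chat limit of 100 TPM were chosen with earlier results of these data known. Partner genes named were those averaging at least 10 TPM with a fold past 1 or -1 of the same sign on both large plates, and the 2 most abundant of each list, and for each member found in at least 20 MSN the 3 genes with the largest rho. A few genes that these rules pick are not reported here. Cntnap5a was named for passing the limit on shares, after its values were seen. Also named after their values were seen were Cbln2, Nxph1, Rtn4r, Rtn4rl1, Ngfr, Clstn2, Ptprs and Cntnap4. Alternatives were other pseudocounts, limits, scalings and sets of cells.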

Additional observations from a re-analysis of the deposited data

How the results depend on the processing

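No paired analysis was possible because the labels number no replicates and tie no cell to an animal. Both large plates held both groups, and the mean of the folds within them was -2.41 for Nrxn2 and 4.25 for Lingo2. No pooled fold of a member past 1 or -1 changed sign under any alternative run, but the fold of Nrxn2 within FACS051_5 turned from -1.15 to 0.47 without its highest cell, a D2 cell. Of 126 alternative pooled folds of single members 108 moved by less than the SD between the 2 large plates and 18 moved by more, and of 81 alternative share differences 64 and 17 did. That SD is wide where the plates differ, as for Nlgn1, whose fold ran from -0.05 to 1.41 under the alternatives. It is narrow where they are alike, as for the share of Lingo2, so these counts do not measure stability. The number of members with a fold past either limit was 3 and lay between 2 and 4 under the alternatives. The number with shares at least 25 points apart was 2, but it was 4 without plate FACS051_5 (Nlgn1 and Lingo1 joined Cntnap3 and Lingo2) and 1 without plate FACS086_4 (Lingo2). The settings restricted to 4000 to 8000 genes per cell, and those without the highest cell, or the highest of each group, were chosen after seeing the data. Limits: TPM of single cells hold no depth, a cell without a gene may have lost its transcript, means can rest on 1 cell, and with no animal in the labels the groups have no replicate spread. Plate FACS086_9 held 1 D1 and 3 D2 MSN, too few for values of its own.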

Other observations

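The 2 cholinergic interneurons sorted with the Drd2 cells, both from plate FACS051_5 and with 10251 and 10912 genes above 1 TPM, held nearly all of the members. Nrxn2 stood at 113 and 173 TPM in them (wells A08 and B02), where the MSN median was 0.810 TPM and 8 and 2 of 78 MSN lay at or above these values. Cntnap3 was at 10.97 and 2.98 TPM, although 0 of 38 D2 MSN exceeded 1 TPM, and Lingo2 at 13.2 and 0 TPM. Nrxn3 (133 and 74.3 TPM), Cntnap2 (133 and 105.1 TPM), Nlgn2 (20.7 and 28.4 TPM) and Lingo1 (47.5 and 5.72 TPM) lay within the range of the MSN.

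In both cells 5 of 68 listed partner genes and 0 of 9 members were above every MSN. The share of all listed genes that were so was not computed, so whether 5 of 68 is many cannot be said. These 5 are named for that, after their values were seen. The calsyntenin Clstn2, a neurexin ligand, stood at 298 and 269 TPM and reached 43.5 TPM at most in MSN. Nxph1, a secreted ligand of alpha-neurexins, stood at 3.95 and 46.5 TPM and was listed at 0 in all 78 MSN. Mdga1 was at 11.1 and 42.6 TPM against at most 2.69 TPM in MSN, the receptor phosphatase Ptprs at 233 and 288 TPM against at most 178 TPM, and Cntnap4 at 25.2 and 26.5 TPM against at most 24.6 TPM. These are values of 2 cells from 1 plate, with more genes found than in any MSN, and the part of that in the differences was not tested.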
